A study of Homo sapiens with 8 samples.

Results

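The genes described here are 10 imprinted genes: PEG10, SGCE, MEST, GRB10, IGF2, H19, DLK1, MEG3, SNRPN and PEG3. They were taken from a fixed list and found in the deposited count table by their Ensembl identifiers, which were matched to GENCODE symbols, and all 10 were among its 60725 genes. The list was drawn up with values of these libraries known, so the differences between knockdown and control cells are given for these 10 genes as a description, and how many of them passed the test is given only as a record, from which nothing is read.

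Imprinted genes are transcribed mainly from the copy inherited from 1 parent. The choice is set by DNA methylation laid down in egg or sperm at control regions and kept in the embryo by a zinc-finger and KAP1 complex, and most of the genes lie in clusters that share such a region. Many act on fetal and placental growth, with paternally expressed genes often promoting it and maternally expressed genes often limiting it. PEG10 is a paternally expressed gene derived from the Gag and Pol genes of a retrotransposon, and it is known for its role in placenta and its high level in several tumours.

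HAP1 cells are human, nearly haploid and derived from the leukaemia line KBM-7. All 8 libraries came from 1 clone, cSC9, which carries dCas9-KRAB, a catalytically dead Cas9 fused to a repressor domain. The clone was transduced with a lentiviral guide RNA against ADAM22 as the control (3 libraries), against NELFE (3 libraries) or against NELFB (2 libraries), and polyadenylated RNA was taken 144 h later, after puromycin selection. NELFE and NELFB are subunits of the negative elongation factor, which holds RNA polymerase II at the pause site close to the start of genes. The study's methods call the NELFE and NELFB replicates biologically independent, and the count columns name the control replicates in the same way. Where control libraries do not come from separate cultures, p-values measure only the spread between these libraries, which may be technical. A haploid cell holds 1 copy of most chromosomes, so the parental origin of each transcript cannot be read from these counts.

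Total counts per library lay between 22037423 and 24444185. NELFE mRNA was at 50.6, 49.5 and 47.8 CPM in the control libraries and at 2.41, 2.38 and 2.98 CPM in the NELFE knockdown. NELFB mRNA was at 74.6, 72.8 and 78.7 CPM in the control libraries and at 3.08 and 2.76 CPM in the NELFB knockdown. CPM are counts scaled to a common library size after TMM normalization. Each guide RNA therefore lowered its own target in every library that carried it.

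The control guide RNA has a target that is expressed. ADAM22 was at 11.2 to 13.7 CPM in the control libraries and at 29.9 to 47.6 CPM in the 5 knockdown libraries, a log2 fold change of 1.62 ± 0.14 (standard error, SE, and adjusted p = 7.4e-05, quasi-likelihood test of edgeR, Benjamini-Hochberg adjusted). ADAM22 lies on chromosome 7, as do PEG10, SGCE, MEST and GRB10, and its end is 6.45 Mb before the start of PEG10. Whether repression at ADAM22 in the control cells reached any of these genes was not tested.

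Defining markers of blood cells were close to 0, although the parent line is a leukaemia. Of 8 blood markers, HBG1 and MPO had no read in any library, PTPRC and SPI1 had at most 3 reads in each library, and the 8 together summed to 0.218 to 0.444 CPM in the control libraries. Their sum was 0.791 to 1.58 CPM in the NELFE knockdown and 3.20 and 1.11 CPM in the NELFB knockdown. CD34, a marker of stem and progenitor cells and the most abundant of the list over all 8 libraries, had 3, 3 and 1 reads in control cells, 16, 6 and 28 in the NELFE and 67 and 21 in the NELFB knockdown. The pooled ratio of 138 to 7 reads was 11.9 with a 95% counting interval of 5.64 to 30.2, which covers counting error only, and 7.74 without NELFB replicate 1. It passed the filter only through the knockdown libraries, so no test is given.

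Among 6 epithelial markers KRT18 was the most abundant, and the list summed to 31.6 to 34.0 CPM in the control, 37.3 to 58.4 CPM in the NELFE and 50.1 to 75.3 CPM in the NELFB libraries. KRT8 and KRT18 rose, with log2 fold changes of 1.65 ± 0.36 and 0.56 ± 0.15 (SE, adjusted p = 0.0091 and 0.017, quasi-likelihood test of edgeR, Benjamini-Hochberg adjusted), while KRT19 was at 0. Of 6 fibroblast markers, DCN and LUM were at 0 and COL1A1 gave nearly all reads. The list summed to 19.3 to 30.0 CPM in the control and 15.6 to 28.8 CPM in the knockdown libraries. The part of these markers in the values below was not tested. In bulk RNA, fewer cells that express a gene and less of its RNA per cell cannot be told apart.

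The 10 genes ranged from the nuclear gene with the most reads in control cells to genes without a read. On a scale that corrects for transcript length (TPM, from the union of annotated exons), PEG10 reached 2995 ± 614 TPM in control cells (SD, n = 3). GRB10 followed at 61.2 ± 0.793 TPM and SGCE at 14.7 ± 2.05 TPM. H19 was at 2.06 ± 0.233 TPM, MEST at 1.51 ± 0.118 TPM and IGF2 at 0.437 ± 0.156 TPM.

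At the low end, MEG3 (0.176 ± 0.0836 TPM, SD, n = 3) and DLK1 (0.123 ± 0.0540 TPM) did not differ beyond their spread. PEG3 and SNRPN had no read in any of the 8 libraries. A count of 0 allows up to 3 reads, which is 0.12 to 0.14 CPM depending on the library.

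MEST stood above H19 in the knockdown libraries, at 3.82 ± 0.258 TPM in the NELFE (SD, n = 3) and 6.79 ± 1.56 TPM in the NELFB knockdown (SD, n = 2). H19 was at 1.59 ± 0.215 and 1.16 ± 0.0966 TPM in the same groups. PEG10, GRB10 and SGCE kept their order in both knockdowns. MEG3, IGF2 and DLK1 lay between 0.171 and 0.195 TPM in the NELFE and between 0.340 and 0.533 TPM in the NELFB knockdown, with neighbours that did not differ beyond their spread.

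**Figure D1:**
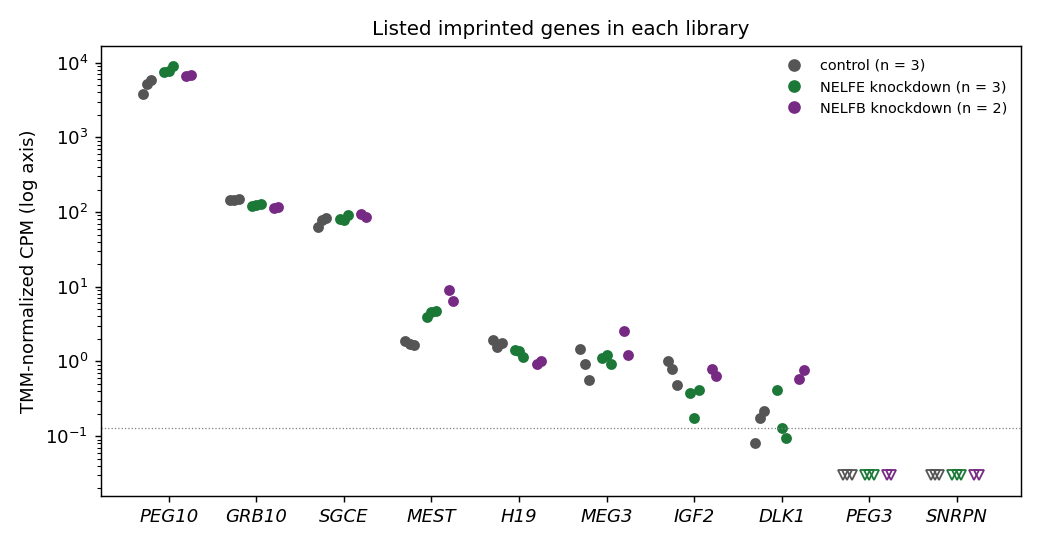
TMM-normalized CPM (log axis) of the 10 imprinted genes in each of the 8 libraries, with points coloured by group and open triangles for libraries with no read. PEG10 lies at 3742 to 8899 CPM, GRB10 and SGCE near 100, the other 5 detected genes at 10 or below, and the dotted line marks the level of 3 reads.

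PEG10 (ENSG00000242265.5, GRCh38 chr7:94656325-94669695, plus strand) encodes a Gag-like protein that forms virus-like particles and, through a ribosomal frameshift, a longer Gag-Pol form. It had 93265, 116099 and 133211 reads in the control libraries, 179358, 176372 and 191287 in the NELFE knockdown and 159554 and 161520 in the NELFB knockdown. After normalization these were 3742, 5153 and 5805 CPM in control cells, 7463, 7620 and 8899 CPM in the NELFE knockdown and 6633 and 6865 CPM in the NELFB knockdown. All 5 knockdown libraries lay above all 3 control libraries, and the control libraries were the most scattered of the groups.

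The log2 fold change of PEG10 was 0.61 ± 0.14 (SE) over both knockdowns together, a 1.53-fold difference. It was 0.70 ± 0.14 in the NELFE knockdown and 0.46 ± 0.16 in the NELFB knockdown, which share the same control libraries. The NELFE knockdown minus the NELFB knockdown gave 0.24 ± 0.16. With each library left out in turn the log2 fold change over both knockdowns ranged from 0.45 to 0.75.

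PEG10 took a large share of the sequencing. By mean count in control cells it was the first of all nuclear genes, with 114192 reads against 95068 for EEF1A1, a translation elongation factor, and 89024 for the chaperone HSP90AA1. It held 0.382% of all counts in control replicate 1 (95% Wilson interval 0.379 to 0.384), 0.502% in replicate 2 and 0.557% in replicate 3. In the NELFE knockdown the share was 0.761, 0.774 and 0.868% and in the NELFB knockdown 0.669 and 0.700%. These intervals cover counting error only, since the reads carry no molecular identifiers.

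PEG10 had more reads than any other nuclear gene in 7 of the 8 libraries and was the second in control replicate 1. On the TPM scale its rank among nuclear genes was 13, 3 and 4 in the control libraries and 1 in all 5 knockdown libraries. Mitochondrial genes took 4.62, 3.72 and 3.48% of the counts in the control libraries, 4.26 to 4.47% in the NELFE and 4.81 and 5.01% in the NELFB libraries. With mitochondrial reads left out of the totals, PEG10 stood at 4000 to 5771 CPM in control cells and 7030 to 9076 CPM in knockdown cells, and the groups again did not overlap.

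SGCE (ENSG00000127990.15, chr7:94524204-94656572, minus strand) encodes epsilon-sarcoglycan, a membrane protein whose loss causes myoclonus-dystonia. It is also paternally expressed and is transcribed away from PEG10, from a start 247 bases inside the annotated PEG10 gene. SGCE was at 62.6, 78.8 and 84.2 CPM in control cells, 81.3, 77.7 and 92.6 CPM in the NELFE knockdown and 94.1 and 84.5 CPM in the NELFB knockdown. The control and NELFE libraries overlapped, with 1 NELFE library above the highest control library, whereas both NELFB libraries lay above it.

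The log2 fold change of SGCE over both knockdowns was 0.19 ± 0.10 (SE), with 0.15 ± 0.12 in the NELFE and 0.25 ± 0.13 in the NELFB knockdown. Control replicate 1 was the lowest library for PEG10 and for SGCE alike. The ratio of PEG10 to SGCE in TPM was 187, 204 and 215 in the control libraries, 286, 306 and 300 in the NELFE libraries and 220 and 254 in the NELFB libraries. All 5 knockdown ratios lay above the control ratios, with the NELFE libraries highest. Of the exon bases of PEG10 in GENCODE v44, 3.27% overlap SGCE, and reads there would be counted for neither gene if the older annotation used for counting shares that stretch.

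**Figure D2:**
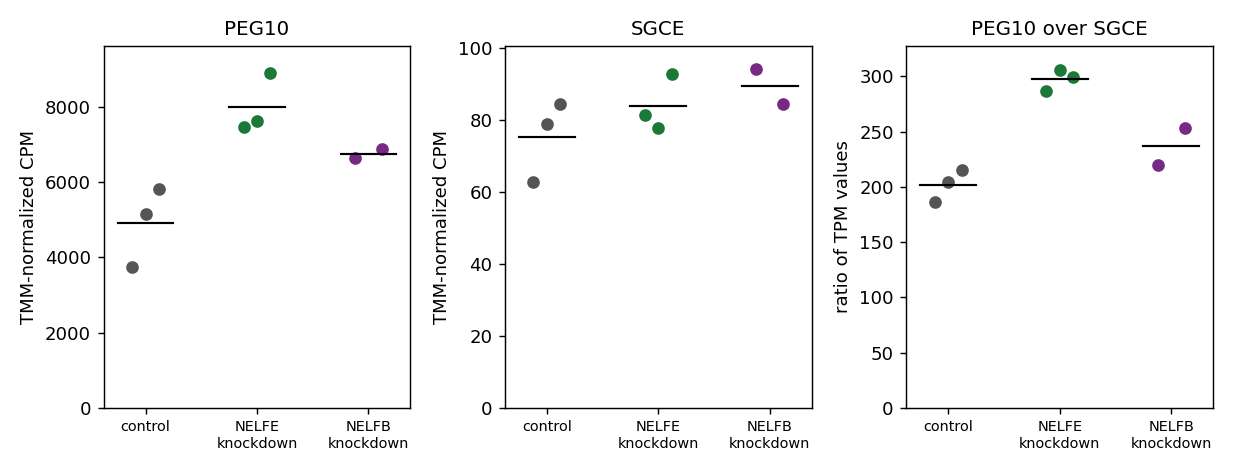
PEG10 and SGCE in TMM-normalized CPM and the ratio of their TPM values in each library, with horizontal bars at the group means (3 control, 3 NELFE and 2 NELFB libraries). PEG10 and the ratio separate control from knockdown libraries, whereas the SGCE points of control and NELFE libraries overlap.

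Few genes near PEG10 were measurable. Within 500 kb of its start the table lists 15 genes, of which 8 had no read and 4 passed the filter on low counts, PEG10 and SGCE included. CASD1, which encodes a sialic acid O-acetyltransferase and is not on the list of imprinted genes used here, rose with a log2 fold change of 0.31 ± 0.08 (SE, adjusted p = 0.015, quasi-likelihood test of edgeR, Benjamini-Hochberg adjusted). It was at 25.2 to 29.5 CPM in control and 32.3 to 37.0 CPM in knockdown cells. PPP1R9A, which encodes the actin-binding protein neurabin-1 and is maternally expressed in some tissues, had a log2 fold change of 0.19 ± 0.08 (SE) and did not pass the test (adjusted p = 0.10, quasi-likelihood test of edgeR).

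The genes with profiles most like that of PEG10 were nuclear and mitochondrial. Over the 12792 genes whose mean log2 CPM was 1 or more, likeness was measured as the root mean square distance between log2 CPM profiles, each centred on its own mean over the 8 libraries. The nearest was the mitochondrial transfer RNA gene MT-TL1 at 0.0882 log2 units, followed by GBE1, the glycogen branching enzyme, at 0.103 and SMIM10L1, a small membrane protein gene, at 0.104. MT-TL1 had only 34 to 69 reads per library. The PEG10 profile itself had a root mean square deviation of 0.365 from its mean.

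MEST (ENSG00000106484.14, chr7:130486171-130506465, plus strand) is a paternally expressed gene for a protein of the alpha/beta-hydrolase family and marks mesodermal tissue in the embryo. It had 47, 39 and 38 reads in the control libraries, 95, 105 and 101 in the NELFE knockdown and 219 and 153 in the NELFB knockdown. These are 1.89, 1.73 and 1.66 CPM in control cells, 3.95, 4.54 and 4.70 CPM in the NELFE and 9.10 and 6.50 CPM in the NELFB libraries. No library of any group fell inside the range of another group.

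MEST had the largest log2 fold change over both knockdowns of the 7 listed genes that could be fitted, at 1.71 ± 0.28 (SE), a 3.27-fold difference. It was 1.31 ± 0.19 in the NELFE and 2.15 ± 0.20 in the NELFB knockdown, and the NELFE minus the NELFB knockdown gave -0.83 ± 0.19. Without NELFB replicate 1 the log2 fold change in the NELFB knockdown was 1.88. Other genes overlap 27.6% of the MEST exon bases, COPG2 and the antisense gene MESTIT1 among them. COPG2 had 616 to 989 reads with a log2 fold change of 0.04 ± 0.12, and MESTIT1 had at most 3 reads in any library.

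GRB10 (ENSG00000106070.17, chr7:50590063-50793462, minus strand) encodes an adaptor that binds and dampens the insulin and IGF1 receptors, and its imprinting depends on tissue and promoter. It was at 146, 144 and 149 CPM in control cells, 122, 124 and 126 CPM in the NELFE knockdown and 113 and 116 CPM in the NELFB knockdown. The 3 groups did not overlap, and the libraries of each group lay within a few CPM of each other. Its log2 fold change was -0.29 ± 0.06 (SE) over both knockdowns, -0.24 ± 0.06 in the NELFE and -0.36 ± 0.07 in the NELFB knockdown. No other gene overlaps its exons.

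IGF2 and H19 are neighbours on chromosome 11 with opposite imprinting, and share enhancers and a control region bound by CTCF. IGF2 (ENSG00000167244.18, chr11:2129112-2158391, minus strand), the paternally expressed fetal growth factor, had 25, 18 and 11 reads in control cells, 9, 4 and 9 in the NELFE and 19 and 15 in the NELFB knockdown. The NELFE libraries (0.374, 0.173 and 0.419 CPM) lay below the control libraries (1.00, 0.799 and 0.479 CPM), and the NELFB libraries (0.790 and 0.638 CPM) lay among them. Log2 fold changes were -1.24 ± 0.41 (SE) in the NELFE and -0.10 ± 0.39 in the NELFB knockdown. The NELFB value turned positive, to 0.16, without control replicate 1. Other genes overlap 26.9% of the IGF2 exon bases, the read-through gene INS-IGF2 and the antisense gene IGF2-AS among them.

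H19 (ENSG00000130600.15, chr11:1995166-2004552, minus strand) is a maternally expressed noncoding RNA and the precursor of miR-675. It was at 1.93, 1.55 and 1.74 CPM in control cells, 1.41, 1.38 and 1.16 CPM in the NELFE and 0.915 and 1.02 CPM in the NELFB knockdown. All 5 knockdown libraries lay below the control libraries, with NELFB below NELFE. The log2 fold change was -0.56 ± 0.21 (SE) over both knockdowns, -0.40 ± 0.21 in the NELFE and -0.84 ± 0.24 in the NELFB knockdown, on 22 to 48 reads per library.

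DLK1 and MEG3 form the matching pair on chromosome 14. DLK1 (ENSG00000185559.13, chr14:100725705-100738224, plus strand), a paternally expressed membrane protein related to Notch ligands, had 2, 4 and 5 reads in control cells, 10, 3 and 2 in the NELFE and 14 and 18 in the NELFB knockdown. It passed the filter in the model of 3 groups only through the NELFB libraries, and was not fitted in the combined comparison. The fitted log2 fold change was 2.07 ± 0.57 (SE) in the NELFB knockdown and 0.46 ± 0.65 in the NELFE knockdown, and the latter was -0.47 without NELFE replicate 1. One NELFE library lay above the control range and the other two lay within it, while both NELFB libraries lay above it.

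MEG3 (ENSG00000214548.14, chr14:100779410-100861031, plus strand) is a maternally expressed long noncoding RNA. It was at 1.48, 0.932 and 0.566 CPM in control cells, 1.12, 1.21 and 0.930 CPM in the NELFE and 2.58 and 1.23 CPM in the NELFB knockdown. Only NELFB replicate 1 lay outside the control range. The log2 fold change was 0.12 ± 0.39 (SE) in the NELFE knockdown, which became -0.16 without control replicate 3. It was 0.93 ± 0.40 in the NELFB knockdown and 0.29 without NELFB replicate 1.

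SNRPN (ENSG00000128739.21, chr15:24823637-24978723, plus strand) encodes the splicing protein SmN in the Prader-Willi region, and PEG3 (ENSG00000198300.12, chr19:56810077-56840728, minus strand) encodes a zinc-finger protein. Both are paternally expressed, and both were at 0 reads in all 8 libraries. In GENCODE v44, SNURF, SNHG14 and ENSG00000214265 together overlap 33.6% of the SNRPN exon bases and ZIM2 overlaps 12.9% of those of PEG3. Reads in a stretch that is also shared in the older annotation used for counting would be missing.

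The neighbours of SNRPN and PEG3 gave few reads as well. In the SNRPN region of chromosome 15, 7 of 11 listed genes had no read in any library, among them NDN, MAGEL2 and SNURF, and MKRN3 had at most 3 reads in each. SNHG14, the host transcript of the region's small nucleolar RNAs, had 2 to 11 reads per library. UBE3A, a ubiquitin ligase imprinted in neurons, and ATP10A, a phospholipid flippase, were expressed at 44.8 and 5.89 TPM in control cells. In the PEG3 cluster all 4 listed genes (PEG3, ZIM2, USP29 and MIMT1) were at 0 in every library. In GENCODE v44 other genes overlap 52.1% of the exon bases of SNURF and 41.2% of those of ZIM2. They overlap 100% of those of PWAR5, which also had no read. Reads in these stretches would be missing if the older annotation used for counting shares the overlap.

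**Figure D3:**
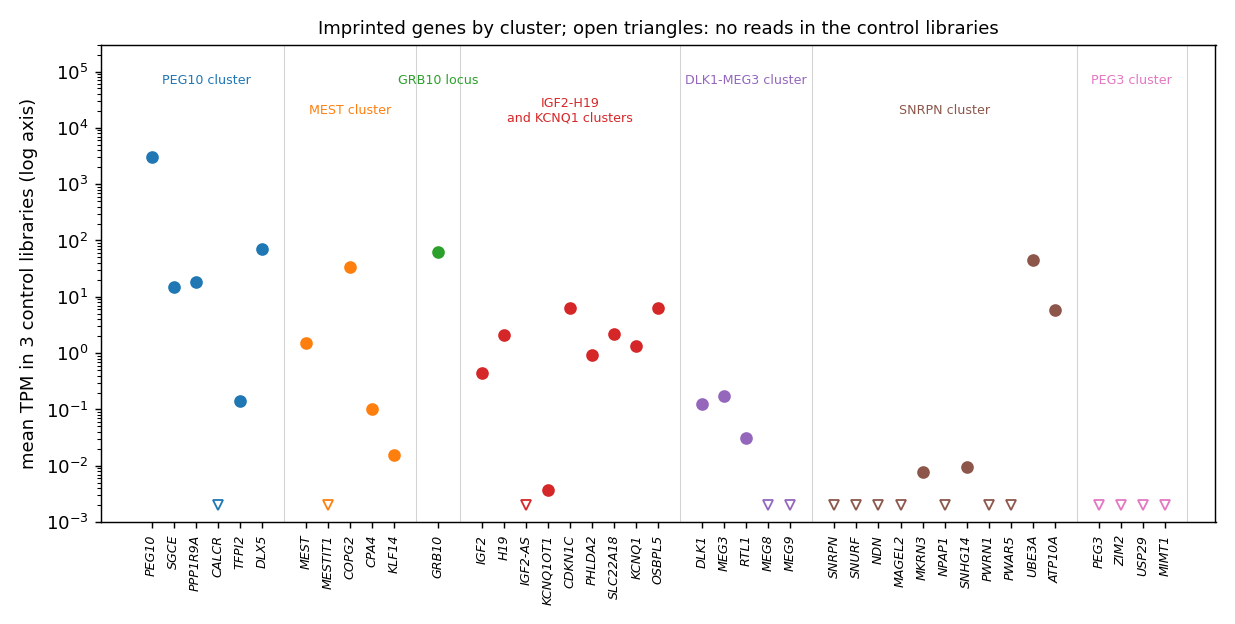
Mean TPM in the 3 control libraries (log axis) of imprinted genes grouped by chromosomal cluster, with open triangles for genes without reads in control cells. The PEG3 cluster is empty, the SNRPN cluster holds only UBE3A and ATP10A above 1 TPM, and PEG10 stands alone at 2995 TPM.

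RefSeq sequence upstream of the annotated starts was available for 5 of the 10 genes, namely MEST, H19, MEG3, SNRPN and GRB10. It is shown for 4 genes that behaved differently in these cells: MEST, higher in every knockdown library, GRB10 and H19, lower in every knockdown library, and SNRPN, without reads. Each line gives the 250 bases before 1 RefSeq transcript start on GRCh38.p14, read 5′ to 3′ on the gene's strand. CpG dinucleotides are in capitals. Imprint methylation lies on CpG, but whether these windows lie in an imprinting control region was not examined. Where a gene has several starts the window with the most CpG is printed, and for MEST a second window had as many. The windows are chr7:130491835-130492084 (plus strand) for MEST, chr7:50792875-50793124 (minus strand) for GRB10, chr11:2001267-2001516 (minus strand) for H19 and chr15:24954737-24954986 (plus strand) for SNRPN.
MEST: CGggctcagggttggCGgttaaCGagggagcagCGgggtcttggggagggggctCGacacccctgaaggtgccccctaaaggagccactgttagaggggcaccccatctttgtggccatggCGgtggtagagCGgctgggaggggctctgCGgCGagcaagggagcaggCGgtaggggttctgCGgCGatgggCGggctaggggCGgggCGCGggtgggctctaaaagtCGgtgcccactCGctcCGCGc
GRB10: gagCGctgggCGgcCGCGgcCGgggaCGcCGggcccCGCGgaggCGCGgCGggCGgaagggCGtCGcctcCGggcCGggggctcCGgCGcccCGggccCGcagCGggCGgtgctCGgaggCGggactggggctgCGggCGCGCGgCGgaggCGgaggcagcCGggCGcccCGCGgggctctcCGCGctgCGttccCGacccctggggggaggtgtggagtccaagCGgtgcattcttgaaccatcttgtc
H19: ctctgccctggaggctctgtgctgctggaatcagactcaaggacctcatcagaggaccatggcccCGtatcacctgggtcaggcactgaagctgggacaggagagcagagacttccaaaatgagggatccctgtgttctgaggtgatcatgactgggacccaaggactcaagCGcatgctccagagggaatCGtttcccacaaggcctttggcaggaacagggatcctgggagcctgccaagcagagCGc
SNRPN: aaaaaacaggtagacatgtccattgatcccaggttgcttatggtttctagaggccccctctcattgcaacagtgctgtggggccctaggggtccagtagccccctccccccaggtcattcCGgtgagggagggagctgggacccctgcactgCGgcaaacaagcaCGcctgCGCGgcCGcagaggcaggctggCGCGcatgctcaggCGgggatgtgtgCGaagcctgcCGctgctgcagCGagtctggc

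The GRB10 window holds 40 CpG, more than 97.8% of 35116 such windows across the genome, whose median is 11. MEST has 20 CpG (more than 67.6% of windows), SNRPN 12 and H19 4. The hexamer TGCCGC, whose methylated form the imprint protector ZFP57 recognises, was searched on both strands. It occurs in 12.7% of all windows. In the printed SNRPN window it occurs once on each strand, and in the printed MEST, GRB10 and H19 windows it does not occur. It does occur once, on the opposite strand, in the other MEST window with 20 CpG and in a GRB10 window with 37 CpG, so its presence depends on the start chosen. These are descriptions of sequence, and no methylation was measured here.

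**Figure D4:**
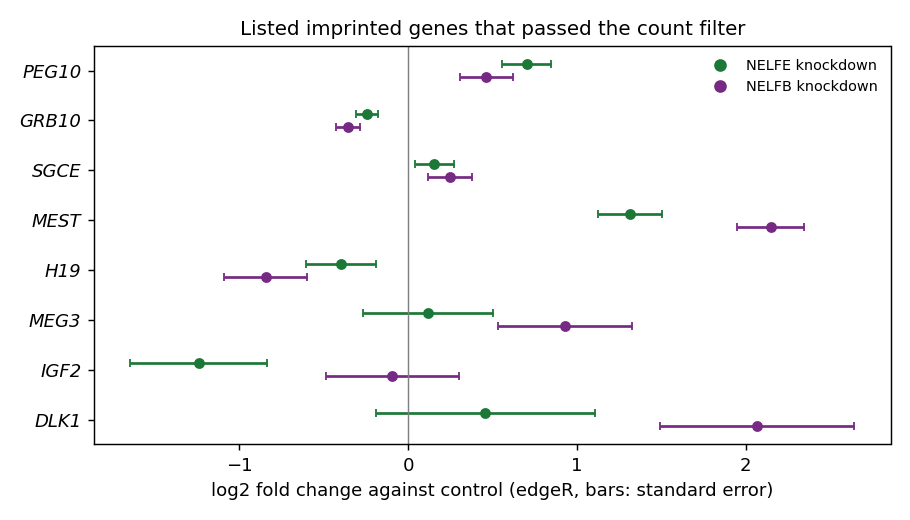
Log2 fold change against control, with standard errors from edgeR, of the 8 listed genes that passed the count filter, for the NELFE (green) and NELFB (purple) knockdowns. PEG10, SGCE, MEST, GRB10 and H19 lie more than 1 standard error from 0, on the same side, in both knockdowns, and MEG3 and DLK1 in the NELFE and IGF2 in the NELFB knockdown lie within 1 standard error of 0.

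In the comparison of all 5 knockdown with the 3 control libraries, 7 of the 10 genes were fitted and 3 had an adjusted p under 0.05 in the quasi-likelihood test of edgeR, against 26.0% of all 16367 genes tested. The libraries of the groups did not overlap for 4 of the 7, against 28.8% of all genes tested. PEG10 and MEST lay above (14.8% of all genes) and GRB10 and H19 below (14.0%). The counts for the listed genes are given beside these shares only as a record, because the list was made with such values in view. The median log2 fold change was 0.19 over the 7 genes and 0.00 over all genes tested.

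In the model of 3 groups, 8 of the 10 genes were fitted, and DLK1 is left out of the counts because it entered through the NELFB libraries alone. In the NELFE knockdown 3 of the other 7 had an adjusted p under 0.05 in the quasi-likelihood test of edgeR, against 15.0% of all 16852 genes, and the groups did not overlap for 5, against 33.4% of all genes. In the NELFB knockdown these were 3 and 5 of the 7, against 19.5% and 51.9% of all genes. IGF2, among the 5 in the NELFE knockdown, had 0 NELFE libraries above the filter's cutoff. It entered that comparison through the control and NELFB libraries, where it was higher, so nothing is read from its place in the count. With replicate number as a block the NELFE knockdown had 4763 called genes of all tested in place of 2520.

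The wider set of imprinted genes was tested in the same fit. This list, and those of imprint regulators, the IGF pathway and Gag-derived genes, were also chosen with earlier results of these data known. Their called shares and adjusted p-values are therefore descriptive and are not independent tests of these lists. Of 64 further imprinted genes, 60 were matched to a row of the table, 16 of these had no read, and 25 had at most 3 reads in every library, those 16 included. In the combined comparison 27 were tested, of which CPA4 passed the filter only through knockdown libraries and is left out of the counts here. Of the other 26, 8 rose and 1 fell by the quasi-likelihood test of edgeR (adjusted p under 0.05), which is 34.6% against 26.0% of all genes tested (13.3% rose and 12.7% fell). The share was near that of all genes without NELFB replicate 1 or without NELFE replicate 1, where 5 of the 26 were called (19.2%, against 18.7% and 20.2% of all genes in those fits). The median log2 fold change of the 26 was 0.17, against 0.00 for all genes.

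By the parental expression they were listed under, 3 of the 6 tested paternal genes rose and none fell, where 26.0% of all genes were called. Of 12 tested genes listed as maternal 2 rose and 1 fell. Of 8 genes listed for imprinting limited to an isoform or tissue 3 rose and none fell. The split is not a clean one, since the maternal list also holds genes imprinted only in some tissues, such as PPP1R9A. Without NELFE replicate 1, 1 of the 6 and 1 of the 8 were called, against 20.2% of all genes in that fit. The counts were the same without NELFB replicate 1, against 18.7% of all genes. The 6 also had 1 call without NELFE replicate 2 (20.8% of all genes) or control replicate 3 (17.8%). Without control replicate 2 there was 1 call among 7 then tested, against 16.0% of all genes. In the NELFE knockdown 5 rose and 1 fell of 27 tested (22.2%, against 15.0% of all genes), and 9 and 1 with replicate number as a block (37.0%, against 28.3% of all genes in that fit). In the NELFB knockdown 5 rose and 1 fell of 27 (22.2%, against 19.5%). That count moved with single control libraries. It was 3 of 28 without control replicate 2 (10.7%, against 11.2% of all genes) and 9 of 27 without control replicate 1 (33.3%, against 25.9%). Between the knockdowns 0 of the 27 passed the quasi-likelihood test of edgeR, against 53 of all genes (0.315%), and 0 of the 27 had an unadjusted p under 0.05.

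Among growth regulators, CDKN1C, which encodes the cell cycle inhibitor p57 and is maternally expressed, had 157, 65 and 47 reads in control cells, 465, 325 and 173 in the NELFE and 311 and 247 in the NELFB knockdown. The change was 1.78 ± 0.38 on the log2 scale (SE, adjusted p = 0.0081, quasi-likelihood test of edgeR, Benjamini-Hochberg adjusted), and all 5 knockdown libraries were above the control libraries. It was 2.39 without control replicate 1 and 1.49 without control replicate 3. PLAGL1, a paternally expressed zinc-finger factor known to regulate a network of imprinted genes, rose by a log2 fold change of 1.21 ± 0.19 (SE, with an adjusted p of 0.0016 in edgeR) from 17 to 23 reads in control cells to 36 to 50 in knockdown cells.

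IGF2R, the receptor that clears IGF2, had 4003 to 4585 reads in control and 5140 to 8096 in knockdown cells. It rose by 0.68 ± 0.10 on the log2 scale (SE, adjusted p = 0.0010, quasi-likelihood test of edgeR), again in 5 of 5 knockdown libraries. DLX5, a homeobox gene further along chromosome 7 from PEG10, had 643 to 798 reads in control and 1077 to 1278 in knockdown cells, a log2 fold change of 0.77 ± 0.10 (SE, with an adjusted p of 0.00057 in edgeR).

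CPA4, a carboxypeptidase gene next to MEST, had 2, 2 and 3 reads in control cells, 10, 9 and 52 in the NELFE and 120 and 77 in the NELFB knockdown. The pooled ratio was 23.2-fold with a 95% counting interval of 11.1 to 58.2, which covers counting error only, and 16.1-fold without NELFB replicate 1. No control library reached the cutoff of the filter, so CPA4 entered the test only where it was high. L3MBTL1 had a log2 fold change of 0.96 ± 0.32 (SE, adjusted p = 0.049, edgeR), BLCAP 0.32 ± 0.10 (adjusted p = 0.035), NAP1L5 0.23 ± 0.07 and HM13 0.23 ± 0.07 (both adjusted p = 0.031). These 4 calls did not hold in every fit with 1 library left out. L3MBTL1 lost its call without any 1 of 6 of the 8 libraries (adjusted p = 0.069 to 0.16, edgeR), NAP1L5 and HM13 without any 1 of 5, and BLCAP without any 1 of 4 and in the model of 3 groups (adjusted p = 0.0513).

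ATP10A, in the SNRPN region, was the 1 of the 26 further imprinted genes that fell, with 855, 632 and 616 reads in control cells and 394 to 531 in knockdown cells. The change was -0.58 ± 0.11 on the log2 scale (SE, adjusted p = 0.0030, quasi-likelihood test of edgeR), below control in 5 of 5 libraries. The most highly expressed of the further genes, GNAS (233 TPM in control cells) and RB1 (122 TPM), had log2 fold changes of 0.10 ± 0.09 and 0.11 ± 0.09 and did not pass the test. UBE3A had one of -0.15 ± 0.06 (adjusted p = 0.086, edgeR).

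**Figure D5:**
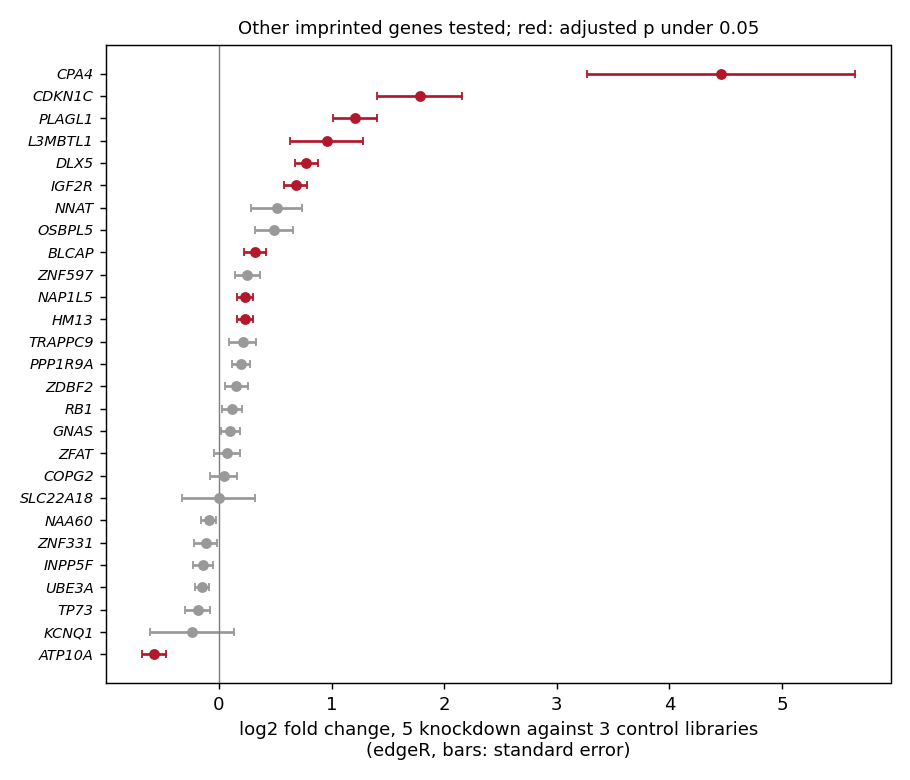
Log2 fold change of 5 knockdown against 3 control libraries, with standard errors, of the 27 further imprinted genes tested with edgeR, where red marks an adjusted p under 0.05. CPA4 is also red, but it passed the filter only through knockdown libraries, so its colour is not counted as a result. Of the other 9 red genes 8 lie above 0 and ATP10A lies below.

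Regulators of imprints were read in the same way. Of 26 listed genes 20 were tested in the combined comparison, and 2 rose and 7 fell (45.0% called, against 26.0% of all genes, median log2 fold change -0.14). Without control replicate 2 or 3, NELFE replicate 1 or NELFB replicate 1, 6 of 20 were called (30%, against 16.0 to 20.2% of all genes). In the single knockdowns the share was 25% for NELFE (against 15.0% of all genes) and 35% for NELFB (against 19.5%). TET1, which oxidises methylcytosine, fell by 0.94 ± 0.09 on the log2 scale (SE, adjusted p = 0.00011, quasi-likelihood test of edgeR), from 2254 to 3270 reads in control to 1314 to 1486 in knockdown cells. UHRF1, which brings the maintenance methyltransferase DNMT1 to replicated DNA, fell by 0.59 ± 0.10 (adjusted p = 0.0021, edgeR). DNMT1 had a change of -0.28 ± 0.08 (adjusted p = 0.022, edgeR), a call lost without any 1 of 4 libraries. In the single knockdowns DNMT1 was not called (adjusted p = 0.085 for NELFE and 0.052 for NELFB, edgeR).

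TRIM28, also called KAP1, the corepressor that keeps imprints, fell by 0.36 ± 0.08 on the log2 scale (adjusted p = 0.0084, edgeR), and RIF1 by 0.42 ± 0.08 (adjusted p = 0.0029, edgeR). ARID4B rose by 0.30 ± 0.06 (adjusted p = 0.0062, edgeR). CTCF, which binds the H19 control region, had a log2 fold change of -0.08 ± 0.08 and did not pass the test. ZFP57, DNMT3L and ZFP42 had at most 3 reads in each library.

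The IGF pathway, in which IGF2, IGF2R and GRB10 act, had 15 of 24 listed genes tested, and 3 rose and 2 fell (33.3% called, near the 26.0% of all genes, median log2 fold change -0.01). IGFBP5, a secreted IGF-binding protein, rose by a log2 fold change of 1.86 ± 0.41 (SE, adjusted p = 0.016, quasi-likelihood test of edgeR) from 1251 to 2821 reads in control to 3522 to 11138 in knockdown cells. IGF1R, the receptor that GRB10 binds, rose by 0.48 ± 0.13 (adjusted p = 0.019, edgeR). It was 0.31 ± 0.10 in the NELFE knockdown, which was not called (adjusted p = 0.063, edgeR). In the NELFB knockdown it was 0.70 ± 0.11 (adjusted p = 0.0025, edgeR). The adaptor IRS4 rose by 1.00 ± 0.33 (adjusted p = 0.046, edgeR) on 6 to 31 reads, with 2 of the 3 control libraries above the cutoff of the filter. IRS4 lost its call without any 1 of 6 of the 8 libraries (adjusted p = 0.076 to 0.16, edgeR) and in the model of 3 groups (adjusted p = 0.0504), and IGFBP5 and IGF1R lost theirs without control replicate 2 or 3. Without control replicate 2 the pathway had 2 calls of 16 tested, both lower (12.5%, against 16.0% of all genes in that fit), and without control replicate 3 it had 3 of 16 (18.8%, against 17.8%). STC2 and IGF2BP3, an IGF2 mRNA-binding protein, fell by 0.83 ± 0.08 and 0.36 ± 0.07 (adjusted p = 0.00014 and 0.0034, edgeR). The ligand IGF1 had at most 3 reads in each library.

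PEG10 belongs to a group of mammalian genes that descend from retrotransposon Gag sequences. Of 24 others, 17 were tested, and 8 rose and 1 fell (52.9% called against 26.0% of all genes, median log2 fold change 0.32). With 1 library left out the share was lowest without control replicate 2, at 41.2% against 16.0% of all genes in that fit. It was highest without NELFE replicate 3, at 58.8% against 31.4%, so not every call held in every fit. ARC, a neuronal gene whose protein forms capsids, rose by a log2 fold change of 1.67 ± 0.27 (SE, adjusted p = 0.0015, quasi-likelihood test of edgeR) on 21 to 120 reads. RTL5 rose by 0.98 ± 0.11 (adjusted p = 0.00023, edgeR), LDOC1 by 0.46 ± 0.09 (adjusted p = 0.0038) and MOAP1, which promotes apoptosis, by 0.43 ± 0.08 (adjusted p = 0.0044). PNMA2 fell by 0.43 ± 0.10 (adjusted p = 0.010, edgeR). In TPM, RTL8C was next after PEG10 in this group, at 352 TPM against 2995 TPM in control cells. RTL1, an imprinted relative of PEG10 beside DLK1, had at most 7 reads in any library and was not tested.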

How the data were processed

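RNA-seq of 8 HAP1 libraries (3 control, 3 NELFE, 2 NELFB) was analysed. The deposited values are raw counts: the authors checked reads with FastQC 0.11.6, aligned single-end reads of 65 bases to GRCh38 with STAR 2.5.4a, and counted them without strand on Gencode v24 genes. STAR counts a read only if it overlaps 1 gene, so reads in shared exons are missing. No 2 libraries were identical. Symbols, exon lengths and exon overlaps came from GENCODE v44 by Ensembl identifier, matching 97.4% of genes with reads and 99.88% of counts, and upstream sequences from RefSeq.

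Robust quasi-likelihood fits were made with edgeR 4.0.16 (R 4.3.3), after filterByExpr and TMM normalization, and p-values were Benjamini-Hochberg adjusted over all genes tested and called under 0.05. In the combined comparison 5 knockdown libraries were set against 3 control libraries, and a model of 3 groups gave each knockdown. Alternatives were DESeq2 1.42.0, its size factors, other filters, a replicate block, prior counts and leaving out each library. Fits were tested on simulated counts.

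The 10 genes and the other lists (imprinted genes, imprint regulators, IGF pathway, Gag-derived genes, cell type markers) were chosen with earlier results of these data known. Named besides the 10 were genes near PEG10, the 3 most similar profiles, and from the lists called genes with the largest changes, highly expressed members and markers. DNMT1, CTCF, HM13, SNHG14, RTL8C and genes named for having few reads were added after their values were seen. So were the counts without CPA4 or DLK1 and the read ratios without NELFB replicate 1. One item of the marker lists is not reported here.

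Replicate numbers come from the sample titles. Same-numbered control and NELFE libraries deviated together (correlations 0.45, 0.106 and 0.667), and the control and NELFB pairs did not (-0.0581 and -0.0204). The numbers were therefore taken to pair the first comparison only. A differently numbered pair, control replicate 1 and NELFE replicate 2, gave 0.37, above the 0.106 of the second pair, so the pairing is uncertain. The main fits left the pairing out, so their standard errors and p-values are unpaired. The replicate block was run as an alternative. The NELFE and NELFB libraries gave 0.137 and 0.347, but these are 2 pairs, and 3 were required. Library totals were 22037423 to 24444185 counts, and 3 reads were taken as the limit of a count of 0.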

Additional observations from a re-analysis of the deposited data

Results flagged for a closer look

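Across the 5 knockdown libraries, 40 named genes were searched for a library far from the rest by Dixon's criterion, which by chance marks about 1 group in 20, and 2 genes stood out. MEG3 was at 2.58 CPM in NELFB knockdown replicate 1, while the next library was at 1.23 CPM and the lowest at 0.930 CPM. PPP1R9A was at 48.9 CPM in NELFE knockdown replicate 3, while the other libraries lay at 58.3 to 61.4 CPM.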

How the results depend on the processing

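PEG10, SGCE, MEST, H19 and GRB10 had the same direction in each comparison under every alternative run. Reversed values came from leaving out 1 library: DLK1 in the NELFE knockdown (-0.47 without NELFE replicate 1, up to 0.79), MEG3 in the NELFE knockdown (-0.16 without control replicate 3, up to 0.53) and IGF2 in the NELFB knockdown (0.16 without control replicate 1, 0.04 without NELFB replicate 2, down to -0.33), all log2 fold changes on few reads. The number of called genes in the combined comparison was 4255, and 2688 to 5125 with 1 library left out, lowest without control replicate 2. It was 990 to 3123 for the NELFE knockdown (lowest without NELFE replicate 1), 603 to 4316 for the NELFB knockdown (lowest without NELFB replicate 1) and 27 to 78 for the knockdowns against each other (lowest without NELFB replicate 2). The last comparison had 90 calls with DESeq2 and 161 with no filter, where 54 and 66 were higher in the NELFE knockdown, against 40 of 53. With a replicate block the counts were 4763 for NELFE, 4811 for NELFB, 5636 combined and 195 between knockdowns (69 higher in the NELFE knockdown). With CPA4 left out, 9 further imprinted genes were called, 5 to 12 with 1 library left out and 11 with the block. There were 5 without NELFB replicate 1 or NELFE replicate 1, and 6 without control replicate 2, control replicate 3 or NELFE replicate 2. Their share against that of all genes in the same fit was 19.2% against 18.7% without NELFB replicate 1 and 19.2% against 20.2% without NELFE replicate 1. It was 21.4% against 16.0% without control replicate 2, 23.1% against 17.8% without control replicate 3 and 23.1% against 20.8% without NELFE replicate 2. The highest were 46.2% against 31.4% without NELFE replicate 3 and 42.3% against 34.4% with the block. Of the named genes refitted under the alternatives, BLCAP, NAP1L5, L3MBTL1, IRS4, CPA4, GBE1, IGFBP5, IGF1R, HM13 and DNMT1 lost their calls without 1 or more single libraries. With no filter CDKN1C, CPA4, GBE1, NAP1L5 and HM13 lost theirs, as did CPA4 with the block and BLCAP and IRS4 in the model of 3 groups. PPP1R9A gained a call without NELFE replicate 3 (0.24). The cause of these shifts was not tested. MEG3, IGF2, DLK1, H19 and MEST rest on few reads, which limits their precision.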
